A study of Homo sapiens with 4 samples.

Results

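The 10 genes described here are regulators of the mitochondrial, or intrinsic, pathway of apoptosis: the survival members BCL2, BCL2L1 (the gene of BCL-xL) and MCL1, the effectors BAX and BAK1, and the BH3-only members BCL2L11 (BIM), PMAIP1 (NOXA), BBC3 (PUMA), BID and BIK. They were taken by name from a table of 43622 gene rows, so 10 of 43622 rows are members, and all 10 were among the 19932 genes that passed a filter on low values. The 7 effector and BH3-only members are called death-promoting in what follows, and the other 3 survival members. The effect of the NEDDylation inhibitor MLN4924 on their transcripts, and the dependence of that effect on the tumor suppressor p14ARF, were the questions put to them.

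RNA-seq was done in PC3, an established line of human prostatic adenocarcinoma cells that carries no functional p53, in 4 conditions with 3 libraries each. Ctrl was PC3 with the vehicle DMSO, MLN was PC3 with 1 µM MLN4924, shARF was PC3-shp14ARF with DMSO, and Both was PC3-shp14ARF with 1 µM MLN4924, each for 3 days. The PC3-shp14ARF cells carried a stable short hairpin RNA against p14ARF, brought in by a retrovirus with drug selection. No control shRNA is named for the Ctrl and MLN cells, so the hairpin and the selection cannot be told apart from the loss of p14ARF.

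CDKN2A, the gene of p14ARF and of p16INK4a, was measured at 184 ± 6.49 TPM (transcripts per 1000000) in Ctrl and 118 ± 16.4 in MLN, and at 59.3 ± 1.47 in shARF and 47.5 ± 6.4 in Both (SD, n = 3). In shARF against Ctrl it was lower by 1.63 on the log2 scale (log2 fold change −1.63, limma adjusted p = 2.235e-05). The value is a sum over the transcripts of both proteins. Of markers of the line, the epithelial keratins KRT8 and KRT18 were between 77.7 and 154 TPM and between 125 and 478 TPM over the 12 libraries, while KLK3, the gene of prostate-specific antigen, was listed at 0 in all 12. Libraries of a condition correlated with each other at Pearson r of 0.974 to 0.980 across genes, and those of different conditions at 0.889 to 0.959. TPM values are corrected for transcript length, which allows levels to be set side by side between genes, and they hold no trace of depth, so that read numbers are unknown.

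In the intrinsic pathway, the effectors BAX and BAK open the outer membrane of mitochondria and release cytochrome c, which leads to the activation of caspases. The survival proteins hold the effectors and the BH3-only proteins in a groove on their surface, and the BH3-only proteins, made or activated under stress, fill that groove or activate the effectors directly. NOXA binds MCL1 above all, BIM, PUMA and cut BID bind all the survival proteins, and several of these proteins are short-lived, being marked for the proteasome by cullin-RING ligases, the enzymes that MLN4924 stops by blocking the attachment of NEDD8.

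The stretch that these proteins share is the BH3 motif, and its coding bases are shown for all 10 because this short helix is what one member uses to bind another. A search of the GENCODE canonical proteins for a leucine, any 3 residues, a glycine or alanine, and an aspartate found exactly 1 match in each of the 10 members. The pattern is short and occurs in 4865 of 19580 canonical proteins (24.8%), so a match alone marks no BH3 motif. Each line gives 36 bases of the coding strand, read 5′ to 3′, with the codons of the leucine and of the last pair of residues in capitals.
PMAIP1: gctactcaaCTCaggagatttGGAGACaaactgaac
BCL2L11: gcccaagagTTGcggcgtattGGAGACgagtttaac
BBC3: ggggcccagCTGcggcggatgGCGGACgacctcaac
BID: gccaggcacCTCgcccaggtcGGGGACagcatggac
BIK: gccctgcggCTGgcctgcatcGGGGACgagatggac
BAX: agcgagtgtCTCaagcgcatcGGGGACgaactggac
BAK1: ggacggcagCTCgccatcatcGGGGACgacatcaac
BCL2: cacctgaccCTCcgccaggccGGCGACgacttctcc
BCL2L1: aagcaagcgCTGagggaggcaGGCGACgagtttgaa
MCL1: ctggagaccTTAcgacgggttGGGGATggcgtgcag

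In hg38, these bases lie in PMAIP1 at chr18:59902664-59902699 (exon 2, plus strand), in BCL2L11 at chr2:111150094-111150129 (exon 3, plus), in BBC3 at chr19:47226582-47226617 (exon 3, minus), in BID at chr22:17739418-17739453 (exon 4, minus) and in BIK at chr22:43127707-43127742 (exon 3, plus). Those of the effectors lie at chr19:48955778-48955813 (exon 3, plus) for BAX and at chr6:33575390-33575425 (exon 4, minus) for BAK1. Those of the survival members lie at chr18:63318352-63318387 (exon 2, minus) for BCL2, at chr20:31721925-31721960 (exon 2, minus) for BCL2L1 and at chr1:150578868-150578903 (exon 1, minus) for MCL1. All of them are coding sequence. The invariant aspartate codon is the same, GAC, in every member but MCL1, where it is GAT, and the glycine is replaced by alanine in BBC3. The most similar pair was BAK1 and BIK, with 26 of 36 bases identical. The proteins around the motif differ widely in size, from 54 residues in NOXA to 350 in MCL1.

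In untreated PC3 cells, survival transcripts were the most abundant of the family. BCL2L1 was highest at 427 ± 43.6 TPM, followed by MCL1 (267 ± 3.07), PMAIP1 (198 ± 8.65), BAK1 (99.1 ± 1.69), BAX (64.8 ± 5.25), BID (18.9 ± 0.557), BCL2L11 (7.62 ± 0.353), BIK (6.56 ± 0.946), BCL2 (3.68 ± 0.336) and BBC3 (2.48 ± 0.0964; SD, n = 3). Among neighbours in this order, only the libraries of BCL2L11 and BIK overlapped. BCL2, the founding member of the family, was thus among the lowest, and its level was the least variable over the conditions, with group means spanning 0.54 on the log2 scale. BIK had the widest span (2.44), followed by PMAIP1 (1.99) and BAK1 (1.73).

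**Figure D1:**
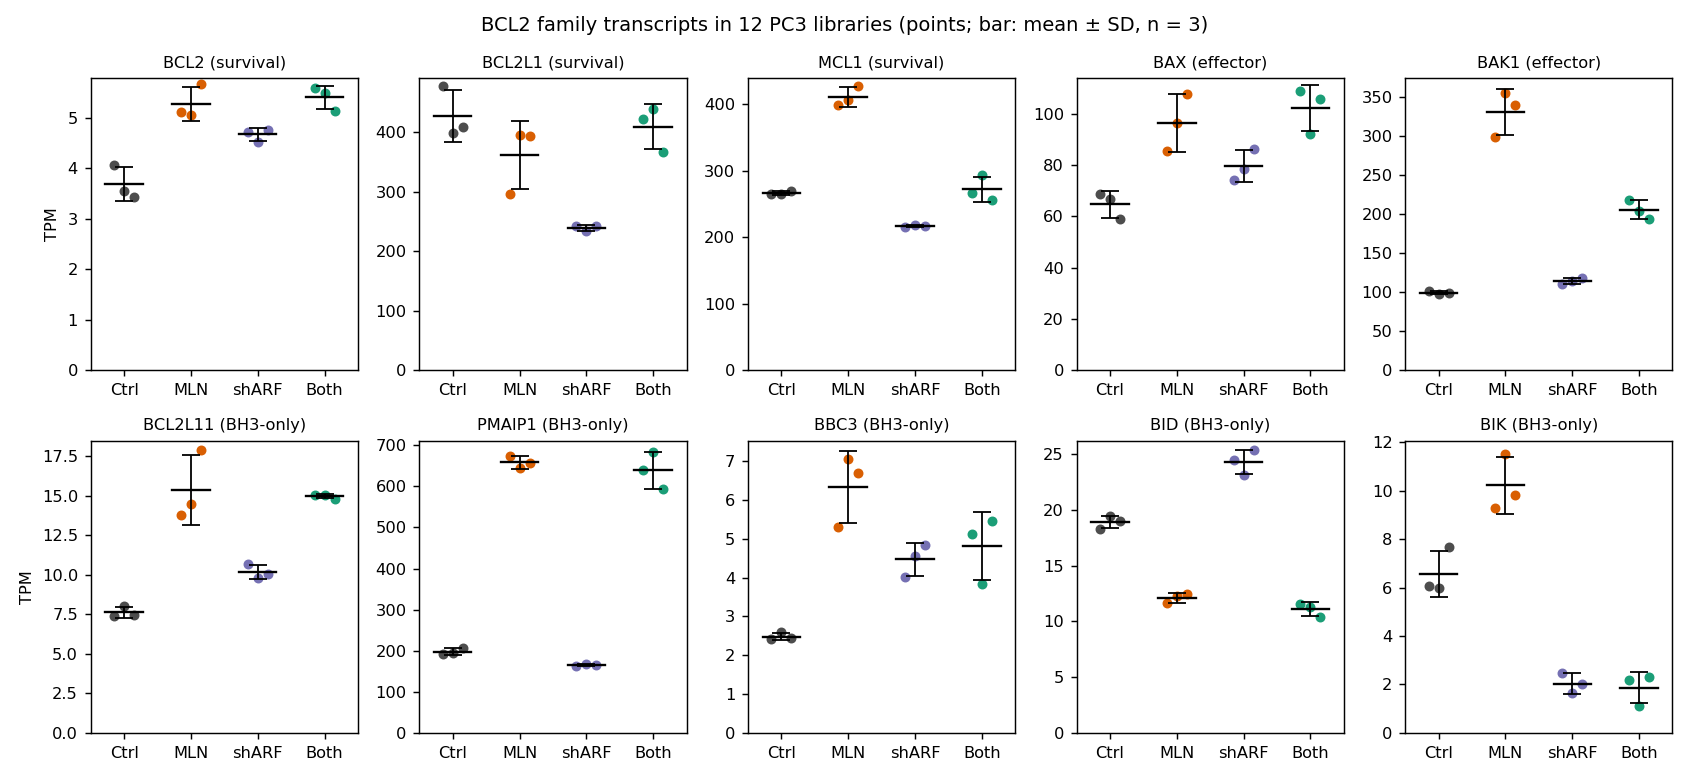
Level of each of the 10 genes in TPM (linear axis from 0) in the 12 libraries, by condition; each point is a library, and the bars give mean ± SD (n = 3). PMAIP1 is between 593 and 684 TPM in all 6 MLN4924 libraries and between 163 and 207 in the 6 others, while BIK is at or below 2.48 TPM in every library of the PC3-shp14ARF cells.

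MLN4924 in PC3 cells (MLN against Ctrl) raised 6 of the 7 death-promoting transcripts and lowered the other, BID. Of the 3 survival transcripts, BCL2 and MCL1 rose and BCL2L1 did not pass the test. In all, 8 of the 10 members rose and 1 fell at an adjusted p below 0.05 (limma, Benjamini-Hochberg over 19932 genes), where 32.2% of all genes tested rose and 29.4% fell. The changes of BAK1, PMAIP1 and BBC3 were beyond 1 on the log2 scale, 3 of 10 members, beside 28% of all genes in either direction. The median log2 fold change was 1.00 over the death-promoting members, 0.51 over the survival members and 0.05 over all genes tested. These are bulk libraries, in which fewer cells of a kind and less RNA per cell cannot be told apart.

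PMAIP1, at chr18:59899996-59904305, encodes NOXA, the partner of MCL1. Its TPM were 191, 194 and 207 in the Ctrl libraries and 644, 656 and 674 in the MLN libraries. The groups lie far apart, and the transcript rose 3.33-fold (log2 fold change 1.74, SE 0.053, adjusted p = 5.815e-06), which made it the most abundant of the 10 genes in MLN.

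BAK1, at chr6:33572547-33580293, encodes the effector BAK, which sits in the outer mitochondrial membrane. It measured 98.0, 98.3 and 101 TPM in Ctrl and 298, 340 and 355 TPM in MLN. Every treated library was well above every control, with a 3.32-fold rise (log2 1.73, SE 0.073, adjusted p = 1.307e-05). The other effector, BAX (chr19:48954815-48961798), moves from the cytosol to mitochondria when activated. It rose less, from 58.8, 66.9 and 68.6 TPM to 85.3, 96.2 and 108 TPM (log2 0.57, SE 0.10, adjusted p = 0.00377). The TPM of BAK1 were 1.47 to 1.67 times those of BAX in the Ctrl libraries and 3.15 to 3.68 times in the MLN libraries.

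Among the remaining BH3-only genes, BBC3 (chr19:47220822-47232766) rose the most from a low level. Its Ctrl libraries had 2.41, 2.44 and 2.59 TPM and its MLN libraries 5.29, 6.69 and 7.04 TPM (log2 1.31, SE 0.13, adjusted p = 0.000318). BCL2L11 (chr2:111119378-111168444), whose product BIM can bind every survival protein, went from 7.37, 7.46 and 8.02 TPM to 13.8, 14.5 and 17.9 TPM (log2 1.00, SE 0.11, adjusted p = 0.000498). For both genes the groups do not overlap, and the spread within MLN was wider than within Ctrl.

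BIK (chr22:43110750-43129712), whose product resides largely on the endoplasmic reticulum, had 5.96, 6.07 and 7.65 TPM in Ctrl and 9.29, 9.81 and 11.5 TPM in MLN (log2 0.63, SE 0.13, adjusted p = 0.00706). BID (chr22:17734138-17774770) links death receptors to mitochondria once caspase-8 has cut it. Its level fell from 18.3, 19.0 and 19.4 TPM to 11.6, 12.3 and 12.5 TPM (log2 fold change −0.64, SE 0.056, adjusted p = 0.000177). BID was thus the only death-promoting transcript that fell in this comparison, with each MLN library below each Ctrl library.

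Of the survival genes, MCL1 (chr1:150560895-150579738), the short-lived partner of NOXA, had 264, 266 and 270.3 TPM in Ctrl and 399, 407 and 428 TPM in MLN (log2 0.62, SE 0.048, adjusted p = 0.000104). BCL2 (chr18:63123346-63320128) rose from 3.43, 3.55 and 4.06 TPM to 5.05, 5.12 and 5.67 TPM (log2 0.51, SE 0.11, adjusted p = 0.00678). Both genes had no overlap between the groups. BCL2L1 (chr20:31664452-31723989) had 397, 408 and 478 TPM in Ctrl and 296, 394 and 395 TPM in MLN. All 3 treated libraries were below all 3 controls, but by less than the spread allowed the test to call, with a log2 fold change of −0.25 (95% interval −0.59 to 0.09, adjusted p = 0.167). Gene-level values lump together the long and short forms of BCL2L1, MCL1 or BCL2L11, some of which have opposed or unequal activity.

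In PC3-shp14ARF cells (Both against shARF), MLN4924 raised 4 of the 7 death-promoting transcripts (PMAIP1, BAK1, BCL2L11 and BAX), lowered BID, and gave no called change of BBC3 or BIK. BCL2L1 and MCL1 rose among the survival members. That is 6 members higher and 1 lower, where 28.3% of all genes tested rose and 32.8% fell. PMAIP1 and BID were beyond 1 on the log2 scale, beside 26.4% of all genes. The median log2 fold change was 0.36 over the death-promoting members, 0.32 over the survival members and −0.04 over all genes tested.

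PMAIP1 rose 3.84-fold, from 163, 166 and 168 TPM in shARF to 593, 640 and 684 TPM in Both (log2 1.94, SE 0.059, adjusted p = 4.303e-06). BAK1 rose 1.79-fold, from 111, 115 and 118 TPM to 194, 204 and 218 TPM (log2 0.84, SE 0.055, adjusted p = 5.578e-05). In each case the lowest treated library exceeded the highest untreated library. BCL2L11 went from 9.80, 10.1 and 10.7 TPM to 14.8, 15.1 and 15.1 TPM (log2 0.55, SE 0.052, adjusted p = 0.000247). BAX measured 74.2, 78.5 and 86.4 TPM in shARF and 92.2, 106 and 109 TPM in Both (log2 0.36, SE 0.086, adjusted p = 0.0122). These were the 4 death-promoting transcripts that rose here.

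BID fell 2.18-fold, from 23.1, 24.5 and 25.3 TPM to 10.4, 11.3 and 11.6 TPM (log2 −1.13, SE 0.063, adjusted p = 3.133e-05). BBC3 had 4.01, 4.54 and 4.84 TPM in shARF and 3.82, 5.13 and 5.47 TPM in Both, so that the groups overlapped (log2 0.092, 95% interval −0.30 to 0.49, adjusted p = 0.647). BIK was low and overlapping as well, at 1.63, 2.0 and 2.48 TPM against 1.12, 2.20 and 2.3 TPM (log2 −0.16, 95% interval −0.94 to 0.62, adjusted p = 0.687). The sign of both values changed when a single Both library was left out, replicate 4 for BBC3 and replicate 3 for BIK (−0.0071 and 0.16).

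BCL2L1 rose from 233, 241 and 242 TPM in shARF to 366, 422 and 438 TPM in Both (log2 0.77, SE 0.074, adjusted p = 0.000264). MCL1 rose from 216, 216 and 219 TPM to 255, 267 and 293 TPM (log2 0.32, SE 0.057, adjusted p = 0.00359). BCL2 had 4.53, 4.72 and 4.76 TPM in shARF and 5.14, 5.49 and 5.59 TPM in Both, a difference that missed the threshold (log2 0.21, SE 0.075, adjusted p = 0.0563) although the groups do not overlap. It passed with no filter on low values (adjusted p = 0.0235), with median-of-ratios scaling (0.00844) and without Both replicate 4 (0.0448).

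**Figure D2:**
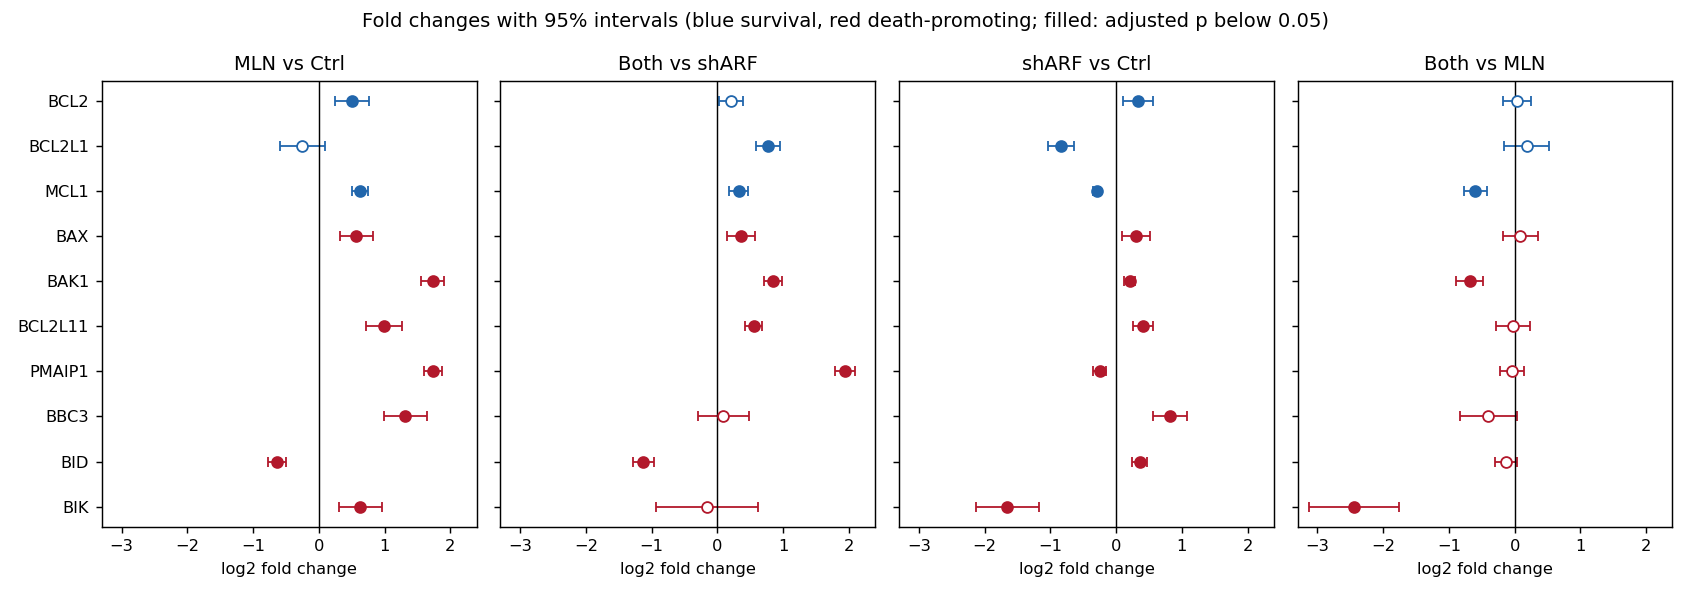
Log2 fold changes of log2(TPM + 0.1) with 95% intervals for the 10 genes in the 4 pairwise comparisons; blue marks survival genes, red death-promoting genes, and filled points an adjusted p below 0.05. Treatment moves PMAIP1 by 1.74 and 1.94 and BAK1 by 1.73 and 0.84 in the first 2 panels, and BIK is the farthest left in the last 2 (−1.65 and −2.44).

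The responses in the 2 cell lines were set against each other with the interaction, the response in PC3-shp14ARF cells minus that in PC3 cells, fitted to the 12 libraries. BCL2L1 had a higher response in PC3-shp14ARF cells, and BAK1, BBC3, BID, MCL1 and BCL2L11 had a lower one, which for BID meant a deeper fall. Thus 1 member was called higher and 5 lower, where 11.2% of all genes tested were called higher and 17.1% lower. BCL2L1 and BBC3 were beyond 1 on the log2 scale, beside 8.47% of all genes. The median interaction was −0.49 over the death-promoting members, −0.30 over the survival members and −0.09 over all genes tested. With median-of-ratios scaling the balance over all genes turned, from 2229 called higher and 3416 lower to 3217 higher and 2787 lower, and 2 members were called higher and 3 lower.

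BCL2L1 had the largest positive difference, 1.02 (SE 0.16, adjusted p = 0.000638), with responses of −0.25 in PC3 and 0.77 in PC3-shp14ARF. BBC3 had the largest negative one, −1.22 (SE 0.21, adjusted p = 0.00124), with responses of 1.31 and 0.09. BAK1 followed at −0.89 (SE 0.096, adjusted p = 4.167e-05), since its rise of 1.73 in PC3 was 0.84 in PC3-shp14ARF. These 3 differences, and that of BID at −0.49 (SE 0.092, adjusted p = 0.00204), kept their sign and their call under every alternative tried.

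MCL1 (−0.30, SE 0.081, adjusted p = 0.0148) and BCL2L11 (−0.44, SE 0.13, adjusted p = 0.0241) were less stable. Under median-of-ratios scaling their adjusted p-values were 0.0503 and 0.0624, and with the library number as a block in the fit 0.121 and 0.233. BCL2L11 also lost its call without Ctrl replicate 3 (0.0523) or without shARF replicate 1 (0.0606). PMAIP1 had an interaction of 0.20 (95% interval 0.02 to 0.39, adjusted p = 0.0957), which was called under median-of-ratios scaling (0.30, adjusted p = 0.0161) and without Both replicate 4 (0.26, adjusted p = 0.0287). BCL2 (−0.30, 95% interval −0.60 to −0.0036, adjusted p = 0.123), BAX (−0.21, −0.51 to 0.09, adjusted p = 0.285) and BIK (−0.79, −1.53 to −0.05, adjusted p = 0.103) did not pass the test.

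**Figure D3:**
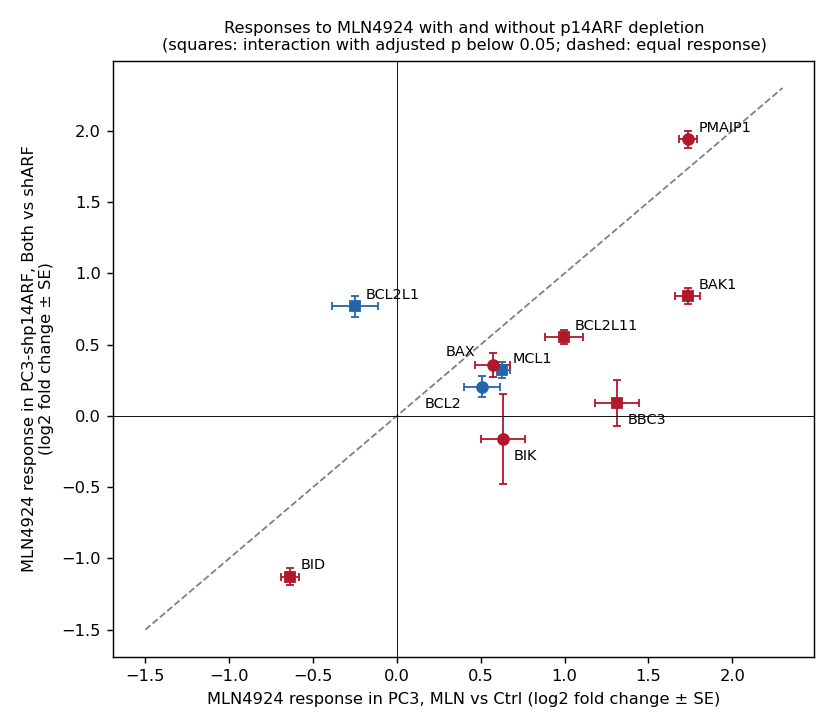
Response to MLN4924 in PC3 (x axis, log2 fold change of MLN against Ctrl) and in PC3-shp14ARF (y axis, Both against shARF) for the 10 genes, with SE bars; blue marks survival genes, red death-promoting genes, squares an interaction with an adjusted p below 0.05, and the dashed line equal responses. BCL2L1 lies above the line by 1.02 and BBC3 and BAK1 below it by 1.22 and 0.89, while PMAIP1 lies close to it.

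Without MLN4924, all 10 members differed between PC3-shp14ARF and PC3 cells (shARF against Ctrl), 6 higher and 4 lower, where 21% of all genes tested were higher and 20.4% lower. With the library number as a block in the fit, 0 members and 0 of all genes were called in either direction. That fit leaves few degrees of freedom, and the meaning of the numbers is not given, so these counts do not decide whether the lines differ. In it, 8 members and 7757 of all genes had an unadjusted limma p below 0.05. In the fit without the block, the death-promoting genes BBC3, BCL2L11, BID, BAX and BAK1 were higher and BIK and PMAIP1 lower. Among survival genes BCL2 was higher and BCL2L1 and MCL1 lower. Only BIK was beyond 1 on the log2 scale, 1 of 10 members, beside 10.5% of all genes. The median log2 fold change was 0.30 over the death-promoting members and −0.30 over the survival members, and all genes tested had a median of 0.

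BIK was 3.14-fold lower in shARF (log2 −1.65, adjusted p = 0.00208), with every shARF library at or below 2.48 TPM and every Ctrl library at or above 5.96 TPM. BCL2L1 was 1.78-fold lower (log2 −0.83, adjusted p = 0.00108) and BBC3 1.77-fold higher (log2 0.82, adjusted p = 0.00257). The others were smaller, at 0.41 for BCL2L11 (adjusted p = 0.00419), 0.36 for BID (0.00278), 0.21 for BAK1 (0.00512), −0.25 for PMAIP1 (0.00511) and −0.30 for MCL1 (0.00044). BCL2 (0.34, adjusted p = 0.0328) and BAX (0.30, adjusted p = 0.0398) rested on the full set of libraries. BAX lost its call when any of the 6 libraries was left out (adjusted p 0.0523 to 0.0990) and with no filter (0.0697), and BCL2 lost it in 5 of the 6 cases, all but Ctrl replicate 1 (adjusted p 0.0736 to 0.0985).

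Under MLN4924, the difference between the cell lines (Both against MLN) was called for 3 members, all lower in Both, and for 0 higher (0 also at an unadjusted p below 0.05 with limma), where 11.8% of all genes tested were called higher and 20.6% lower. With median-of-ratios scaling, 3665 genes were higher and 3460 lower, against 2352 and 4112 without it. BIK was 5.44-fold lower (log2 −2.44, adjusted p = 0.00243), the only member beyond 1, beside 9.02% of all genes. BAK1 was 1.61-fold lower (log2 −0.68, adjusted p = 0.00307) and MCL1 1.51-fold lower (log2 −0.60, adjusted p = 0.00255). For these 3 genes the groups do not overlap.

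PMAIP1 measured 658 ± 15 TPM in MLN against 639 ± 45.2 TPM in Both, with a log2 difference between −0.23 and 0.14 (95% interval, adjusted p = 0.685). BCL2L11 was at 15.4 ± 2.22 and 15 ± 0.141 TPM (interval −0.29 to 0.23, adjusted p = 0.860), and BCL2 at 5.28 ± 0.338 and 5.40 ± 0.235 TPM (interval −0.18 to 0.25, adjusted p = 0.801). The intervals of BCL2L1 (−0.16 to 0.53, adjusted p = 0.362), BBC3 (−0.84 to 0.04, 0.141), BAX (−0.18 to 0.35, 0.573) and BID (−0.30 to 0.04, 0.209) leave room for larger differences. The libraries of each group enter 2 pairwise comparisons, which are therefore not independent of each other.

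Summed over the members alone, the transcripts of the 7 death-promoting genes were fewer than those of the 3 survival genes without MLN4924 and more with it. The ratio of death-promoting to survival TPM was 0.528, 0.589 and 0.594 in the Ctrl libraries and 0.844, 0.878 and 0.891 in shARF. It was 1.39, 1.41 and 1.57 in MLN and 1.37, 1.44 and 1.48 in Both, so MLN and Both overlapped while Ctrl and shARF were apart from each other and from the treated libraries. A score over chosen genes was given no test. The ratio is a count of transcripts and not of proteins.

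The untreated lines differed in the survival sum rather than in the death-promoting sum. In PC3 the death-promoting sum went from 397 ± 3.44 TPM in Ctrl to 1130 ± 28.7 in MLN, while the survival sum was 698 ± 43.4 and 778 ± 68.5 TPM, with overlapping libraries. In PC3-shp14ARF the death-promoting sum went from 401 ± 11.6 to 979 ± 46.7 TPM, and the survival sum from 461 ± 3.74 to 686 ± 55.6 TPM (SD, n = 3). PMAIP1 alone made up 48.4 to 51.7% of the death-promoting TPM in Ctrl and 40.3 to 42.1% in shARF, which compares with 56.5 to 61.5% in MLN and 63.9 to 67.6% in Both. Without the most abundant gene on each side, PMAIP1 and BCL2L1, the mean ratios were 0.738 in Ctrl and 1.06 in shARF, and 1.13 in MLN and 1.23 in Both, so the shARF cells then had a ratio near that of MLN.

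The single pairs PMAIP1 over MCL1 and BAX over BCL2 differed in this. The first separated treated from untreated libraries, as the summed ratio did, and the second did not. PMAIP1 over MCL1 was between 0.719 and 0.769 in the 6 untreated libraries, between 1.53 and 1.69 in MLN and between 2.32 and 2.39 in Both. The higher ratio in Both came with a lower MCL1 level, 272 ± 19.3 against 412 ± 15 TPM in MLN. BAX over BCL2, by contrast, stayed between 15.7 and 20.6 in all 12 libraries.

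**Figure D4:**
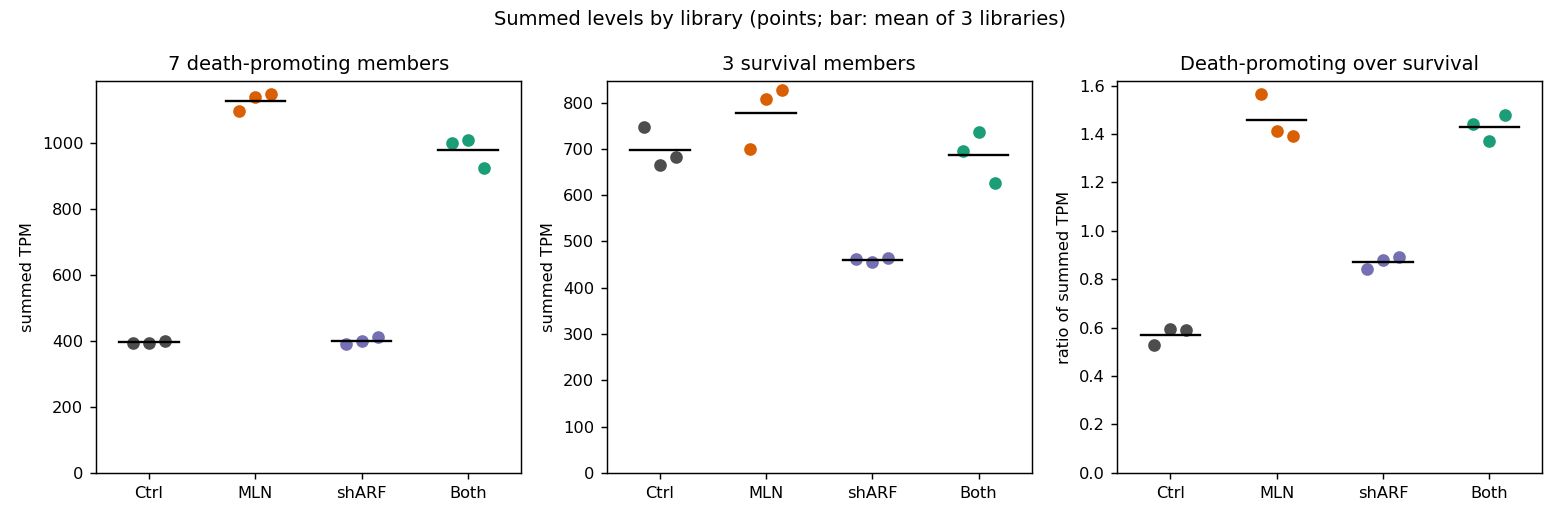
Summed TPM of the 7 death-promoting genes, of the 3 survival genes, and the ratio of the sums, by library and condition (points; bar: mean of 3 libraries; linear axes from 0). The ratio is below 0.9 in all 6 untreated libraries and above 1.3 in all 6 treated ones.

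The rest of the family was described with a list of 13 further genes, all present in the table, of which 10 passed the filter. BCL2L10, HRK and BCL2L14 had group means of at most 0.131 TPM and were not tested. In MLN against Ctrl, 5 of the 10 rose and 1 fell (median log2 fold change 0.32), beside 32.2% and 29.4% of all genes tested. In Both against shARF 4 rose and 4 fell (median −0.17), beside 28.3% and 32.8% of all genes. In shARF against Ctrl 4 were higher and 3 lower (median 0.13), beside 21% and 20.4%, and in Both against MLN 1 was higher and 4 lower (median −0.37), beside 11.8% and 20.6%. In the interaction 1 was higher and 6 lower (median −0.41), beside 11.2% and 17.1%.

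BCL2A1, a survival gene of the family and a known NF-kB target, differed far more between the cell lines than any of the 3 survival members. Its TPM were 82.5, 97.7 and 104 in Ctrl and 231, 285 and 339 in MLN. The PC3-shp14ARF cells had 3.90, 4.08 and 6.56 in shARF, and 82.9, 98.0 and 98.9 in Both. Its level in the shARF libraries was far below all others, and the libraries of Both overlapped those of Ctrl. The log2 fold change was −4.29 in shARF against Ctrl (adjusted p = 0.000209), 1.58 in MLN against Ctrl (0.000289) and 4.27 in Both against shARF (2.012e-05), with an interaction of 2.69 (SE 0.26, adjusted p = 1.923e-05).

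BMF, a BH3-only gene, was lowest in the treated PC3-shp14ARF cells. Its TPM were 7.06, 7.95 and 8.43 in Ctrl and 7.75, 9.97 and 10.3 in MLN. They were 3.70, 3.93 and 4.19 in shARF and 0.825, 0.831 and 0.920 in Both. MLN4924 lowered it in PC3-shp14ARF cells (log2 −2.08, adjusted p = 3.651e-05) and gave no called change in PC3 (0.25, adjusted p = 0.159), and the interaction was −2.32 (SE 0.18, adjusted p = 3.343e-06). Like BIK, it was lower in each library of the PC3-shp14ARF cells than in any of PC3.

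BOK, an effector-like member, fell in both lines, by 0.59 in PC3 (adjusted p = 0.0208) and by 1.28 in PC3-shp14ARF (adjusted p = 5.115e-05) on the log2 scale, with an interaction of −0.69 (adjusted p = 0.0162). BCL2L13 rose from 32.7 to 85.7 TPM in PC3 and from 37.5 to 78.5 TPM in PC3-shp14ARF, and BCL2L12 from 57.2 to 126 TPM and from 78.0 to 122 TPM (group means, adjusted p at most 0.00145). Each rose more in PC3, with interactions of −0.33 for BCL2L13 (limma adjusted p = 0.0292) and −0.49 for BCL2L12 (0.0165). BNIP3L, a mitophagy receptor, rose by 0.37 (adjusted p = 0.00189) and 0.49 (0.00141). BCL2L15 was below 1 TPM on average in each group and rose from 0.0713 to 0.656 TPM in PC3 (adjusted p = 0.00113). It was not called in PC3-shp14ARF (log2 −0.16, adjusted p = 0.772), and its interaction was −2.30 (adjusted p = 0.01145). BAD, BCL2L2 and BNIP3 did not pass the test in MLN against Ctrl (log2 0.28, −0.02 and −0.06). In Both against shARF, BCL2L2 (−0.17, limma adjusted p = 0.0279) and BNIP3 (−0.27, 0.0132) fell. BAD was not called there (−0.43, adjusted p = 0.0656), but its interaction was (−0.71, adjusted p = 0.0197).

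**Figure D5:**
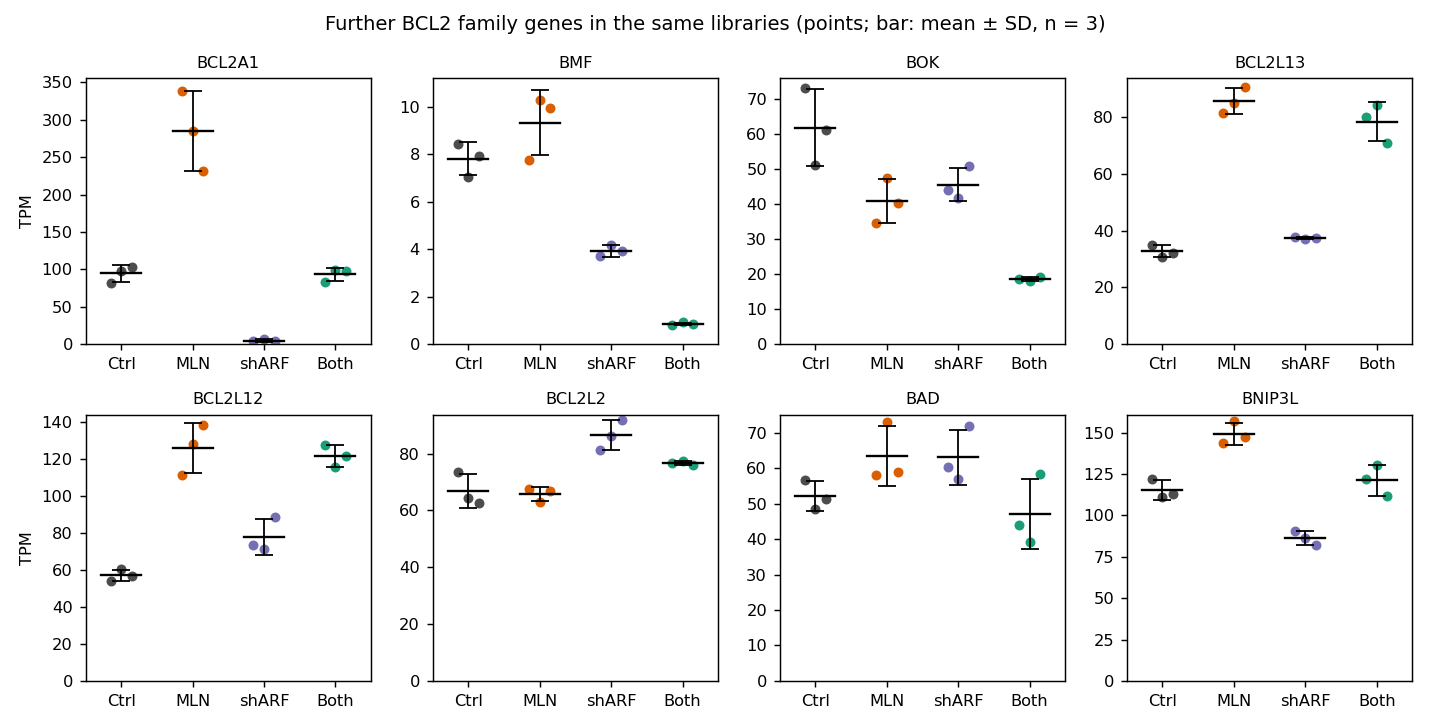
Levels of 8 further BCL2 family genes in TPM (linear axes from 0) in the 12 libraries (points; bars: mean ± SD, n = 3). BCL2A1 is at 3.90 to 6.56 TPM in shARF and at 82.5 TPM or more in every other library, and BMF is below 1 TPM in Both.

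Genes that act around the family were counted in 4 further lists, whose counts stand beside the 32.2% of all genes tested that rose and the 29.4% that fell in MLN against Ctrl, and the 28.3% and 32.8% in Both against shARF. Several of the counts are near these shares, and nothing is read from them about a list as a whole. Of 15 genes of caspase activation downstream of mitochondria, 6 rose and 6 fell in MLN against Ctrl (median log2 fold change 0.14) and 6 rose and 4 fell in Both against shARF (median 0.08). The inhibitors of apoptosis BIRC6 (−0.88 and −0.64) and BIRC5 (−0.69 and −1.19) fell in both lines, as did AIFM1, the gene of a mitochondrial flavoprotein (−0.66 and −0.78; adjusted p at most 0.00157 for each of these 6 values). The remaining listed inhibitors of apoptosis did not fall in both lines. BIRC2 rose in both (0.31 and 0.84, limma adjusted p = 0.00159 and 0.000159). XIAP fell in PC3 (−0.35, adjusted p = 0.00242) and rose in PC3-shp14ARF (0.23, adjusted p = 0.0166). BIRC3 fell in PC3 (−0.44, adjusted p = 0.00567) and was not called in PC3-shp14ARF (−0.13, adjusted p = 0.546).

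Of 10 genes of the death receptor arm that leads to BID, 4 rose and 2 fell in MLN against Ctrl (median 0.13) and 5 rose and 2 fell in Both against shARF (median 0.36). The receptor genes FAS (1.11 and 1.35) and TNFRSF10A (0.93 and 0.78) rose in both lines, as did CFLAR (1.47 and 1.43), which encodes an inhibitor of caspase-8 at these receptors. RIPK1, a kinase of the same complexes, fell in both (−0.60 and −0.85). These 8 values had adjusted p-values of at most 0.000437. The remaining listed receptor genes did not rise in both lines. TNFRSF10B rose in PC3-shp14ARF (0.67, limma adjusted p = 0.000122) and was not called in PC3 (−0.13, adjusted p = 0.130). TNFRSF1A was called in neither (0.05 and −0.04, adjusted p = 0.653 and 0.488).

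For the ubiquitin turnover of MCL1, NOXA and BIM, 9 of 11 listed genes were tested. TRIM17 was listed at 0 in every library, and MARCHF5 had no row under that name. In MLN against Ctrl 2 rose and 5 fell (median −0.27), and in Both against shARF 1 rose and 4 fell (median −0.20). USP13 (−1.5 and −1.38) and USP9X (−1.17 and −1.0), deubiquitinases that spare MCL1, fell in both lines (adjusted p at most 9.568e-05). The ligase HUWE1 fell as well (−0.41 and −0.27, adjusted p = 0.0121 and 0.0425), and WSB2, an adaptor of a cullin ligase, rose (0.42 and 0.47, adjusted p = 0.0107 and 0.000333). None of these 9 genes had a called interaction.

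Of 11 transcription factors with known BH3-only targets, 10 were tested, and TP73 had group means of at most 0.00741 TPM. In MLN against Ctrl 4 rose and 2 fell (median 0.14), and in Both against shARF 7 rose and 2 fell (median 0.68). ATF3, a stress factor, rose by 4.22 in PC3 and 3.81 in PC3-shp14ARF, and DDIT3, the gene of CHOP, by 2.19 and 2.08 (adjusted p at most 2.344e-05). E2F1 rose by 2.25 and 1.04, with an interaction of −1.21 (adjusted p = 0.000118), and MYC fell in both lines (−2.27 and −2.17, adjusted p at most 8.724e-06). Whether any of these factors acts on the 10 genes in these cells was not tested.

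Across the 12 libraries, the genes whose log2 levels followed those of the 3 most variable members were ranked by Pearson's r among the 14662 genes that averaged 1 TPM or more, as a description with no test. For BIK they were ASL (r = 0.974), HES2 (0.972) and IRF5 (0.964), for PMAIP1 they included ARG2 (0.999) and LINC00222 (0.998), and for BAK1 they were HLA-E (0.996), BATF2 (0.995) and GAREM2 (0.994). The 12 points share 4 conditions, so these values mostly follow the group means. HLA-E, for example, had mean levels of 289 TPM in Ctrl and 315 in shARF, and of 1068 in MLN and 653 in Both, the same order of conditions as BAK1.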

How the data were processed

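Total RNA was measured by RNA-seq in 4 conditions of PC3 cells. The authors trimmed adapters, mapped the reads to hg38 and used CLC Genomics Workbench to quantify genes against the Ensembl annotation of GRCh38, and they deposited TPM, which sum to the same total in each of the 12 libraries. Strandedness and read layout are not given in the sources used here, so overlapping genes were read as counted. The series' design note names a knockout and 1 mM; the genotype label and treatment protocol, an shRNA and 1 µM, were followed. No column was left unused. The submitted labels name 1 sample per condition and the table holds 3 numbered columns for each; nothing says that these were separate cultures, so p-values measure only the spread between libraries.

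The 43622 rows were filtered to 19932 genes that averaged 0.1 TPM or more over the libraries, and log2(TPM + 0.1) was fitted with limma 3.58.1 (lmFit, eBayes with trend) in R 4.3.3, and p-values were adjusted by Benjamini-Hochberg over these genes. This scale understates changes of low genes. Each of the 4 pairwise comparisons used its 6 libraries and the interaction all 12, with calls made at an adjusted p below 0.05. The fits were tested on simulated data. Sequences and coordinates are from the GENCODE release 44 annotation of hg38, which may differ from the annotation of the authors.

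The members and gene lists were chosen with earlier results of these data known. All 10 members are named. The 13 further family genes are named or counted, and at most 4 genes of each other list, those with the largest change in MLN against Ctrl among called genes that averaged 1 TPM or more. TNFRSF10B and TNFRSF1A were named besides, as the remaining receptors of their list, and XIAP, BIRC2 and BIRC3, as the remaining inhibitors of apoptosis of theirs. HLA-E was named as an example after its values were seen. Alternatives were pseudocounts of 1 and 0.01, a filter at 1 TPM and none, a fit to all 12 libraries, scaling by median of ratios, a block on the library number, and each library left out in turn. The block in a fit to all 12 libraries was added after seeing the data. Some genes that this rule names are not reported here, and they stay in the counts. The protein, viability and cell cycle experiments were not analysed here.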

Additional observations from a re-analysis of the deposited data

Results flagged for a closer look

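For 6 of the 10 genes the response to MLN4924 differed between PC3 and PC3-shp14ARF cells by the interaction test (limma, Benjamini-Hochberg over 19932 genes), 1 of them called higher and 5 lower, beside 11.2% and 17.1% of all genes tested. Each is given as the response in PC3-shp14ARF minus that in PC3 on the log2 scale. BCL2L1 differed by 1.02 (SE 0.16, adjusted p = 0.000638), with MLN below Ctrl in PC3 and Both above shARF in PC3-shp14ARF. BBC3 differed by −1.22 (SE 0.21, adjusted p = 0.00124), with a rise called in PC3 and not in PC3-shp14ARF. BAK1 differed by −0.89 (SE 0.096, adjusted p = 4.167e-05), having risen in both lines, and BID by −0.49 (SE 0.092, adjusted p = 0.00204), having fallen in both. MCL1 (−0.30, SE 0.081, adjusted p = 0.0148) and BCL2L11 (−0.44, SE 0.13, adjusted p = 0.0241) rose in both lines, more in PC3, and these 2 calls were lost with median-of-ratios scaling (adjusted p = 0.0503 and 0.0624), while the other 4 genes kept theirs under every alternative tried. The untreated lines also differed in all 6 genes, as given for shARF against Ctrl.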

How the results depend on the processing

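The 50 member results (10 genes in 5 contrasts) were recomputed under the alternatives, giving 700 values, of which 653 kept their direction and their side of the threshold, 32 lost a call, 7 gained a call and 8 changed sign. The sign changes were all in differences that had not been called. In Both against MLN, BCL2L11 became 0.062 and PMAIP1 0.047 with median-of-ratios scaling. With libraries left out in turn, BCL2L11 ranged from −0.10 (without MLN replicate 1) to 0.084 (without MLN replicate 5) and PMAIP1 from −0.095 (without Both replicate 3) to 0.0068 (without Both replicate 4). In Both against shARF, BIK ranged from −0.33 (without Both replicate 4) to 0.16 (without Both replicate 3) and BBC3 from −0.0071 (without Both replicate 4) to 0.25 (without Both replicate 3).

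With median-of-ratios scaling, 3665 of all genes were higher in Both against MLN, and the interaction had 2 members higher and 3 lower. With libraries left out in turn, all genes called in Both against MLN ranged from 1324 to 2092 higher and from 2613 to 3831 lower, and the members with a higher interaction from 1 to 2. The lowest of these counts, 1324 and 2613, came without Both replicate 2 and without MLN replicate 2. The cause was not tested.

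The meaning of the library numbers is not given. Deviations of same-numbered libraries correlated between −0.046 and 0.022, with no comparison to differently numbered libraries. Whether the numbers pair the samples was thus not tested. With the number as a replicate block, which leaves fewer degrees of freedom, MLN against Ctrl had 4 members higher (BCL2, MCL1, BAX and BIK lost their calls) and 3047 of all genes higher and 2661 lower. For shARF against Ctrl the block left 0 members higher and 0 lower and 0 of all genes higher and 0 lower with limma, while 8 members and 7757 genes had an unadjusted p below 0.05 and the smallest adjusted p was 0.0607. The interaction with the block had 3 members and 1612 of all genes lower, and MCL1 (adjusted p = 0.121) and BCL2L11 (0.233) lost their calls. Both against shARF and Both against MLN share a single number, so the block was fitted there in all 12 libraries, an alternative chosen after seeing the data. It called 6 members higher and 1 lower in the first and 0 higher and 4 lower in the second, where BBC3 gained a call (−0.51, adjusted p = 0.0427), and it turned the sign of BBC3 in the first (−0.0945) and of BCL2L11 in the second (0.0293), neither of them called.

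The mean ratio of death-promoting to survival TPM was 0.570 in Ctrl, 1.46 in MLN, 0.871 for shARF and 1.43 for Both. It was 0.738, 1.13, 1.06 and 1.23 without the most abundant gene on each side, and 0.335, 0.908, 0.449 and 0.980 with BH3-only genes alone over the survival genes. TPM carry no depth, so the precision of low genes such as BBC3 and BIK is known only from their spread over 3 libraries.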

Other observations

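Over the 12 libraries, pairs of the 10 genes were compared by Pearson's r of their log2 levels, as a description with no test, since the 12 points share 4 conditions. BCL2 and BCL2L11 followed each other (r = 0.930), as did BAX with BCL2L11 (0.929) and with BCL2 (0.925), and BAK1 with PMAIP1 (0.916). PMAIP1 ran opposite to BID (−0.967). BID and PMAIP1 thus separated the 6 treated libraries from the 6 untreated ones in opposite directions, BID with at most 12.5 TPM when treated and at least 18.3 TPM when untreated.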
